A study of Mus musculus with 6 samples.

Results

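Macrophages are resident immune cells of adipose tissue, and the stromal vascular fraction from which preadipocytes are grown can carry them into culture. The RNA of 10 genes that mark these cells was followed in brown (BAT) and white (WAT) cells during differentiation: *Cd68*, *Lyz2*, *Tyrobp*, *Fcer1g*, *Csf1r*, *Cd14*, *Mrc1*, *C1qa*, *C1qb* and *C1qc*. They were chosen by name, with earlier results of these data known, as 10 of the 37841 gene entries of the deposited expression table. Their counts beside those of all genes are therefore a description and not independent support. Each name had its row, and all 10 were among the 14413 genes with at least 1 FPKM (fragments mapped to a gene, scaled to its transcript length in kilobases and to the size of the library) in at least 1 of the 6 libraries.

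The study isolated brown preadipocytes from the interscapular and white preadipocytes from the inguinal depot of BL6 mice of weaning age, and differentiated them in vitro. The 6 groups were BAT on day 0, 4 and 6 and WAT on day 0, 4 and 6, with 1 library of total RNA each, so that no condition had a replicate and a difference between a pair of libraries had no replicate check. Day 0 cells were confluent and had not been induced. The cells of days 4 and 6 had been given insulin, dexamethasone, 3-isobutyl-1-methylxanthine and rosiglitazone in serum, and then a maintenance medium. Fat of several mice was combined, the fraction was enriched for preadipocytes without a sort for macrophages being described, and the sources do not say whether the days came from separate cultures. In bulk RNA, fewer cells of a type and less RNA per cell cannot be told apart.

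The 10 genes cover several tasks of a macrophage. *Csf1r* encodes the receptor through which CSF1 and IL34 keep macrophages alive, and *Tyrobp* (DAP12) and *Fcer1g* encode adaptors that carry the signal of activating receptors through a cytoplasmic ITAM motif. CD68 is a glycoprotein of the late endosome and lysosome and *Lyz2* encodes the lysozyme of myeloid cells. CD14 is a co-receptor for bacterial lipopolysaccharide and *Mrc1* (CD206) encodes the mannose receptor. *C1qa*, *C1qb* and *C1qc* encode the chains of C1q, which starts the classical complement pathway and is made largely by macrophages rather than by the liver.

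The promoters of 4 members show the sequence in front of genes from different tasks. They are the 250 bases before the RefSeq start on GRCm38.p6, at chr11:69666171-69666420 for *Cd68*, chr10:117282273-117282522 for *Lyz2*, chr4:136886201-136886450 for *C1qb* and chr4:136892915-136893164 for *C1qc*, each on the minus strand and written 5′ to 3′. Capitals mark GAGGAA, the core bound by the myeloid factor PU.1, or its reverse complement TTCCTC.

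Cd68: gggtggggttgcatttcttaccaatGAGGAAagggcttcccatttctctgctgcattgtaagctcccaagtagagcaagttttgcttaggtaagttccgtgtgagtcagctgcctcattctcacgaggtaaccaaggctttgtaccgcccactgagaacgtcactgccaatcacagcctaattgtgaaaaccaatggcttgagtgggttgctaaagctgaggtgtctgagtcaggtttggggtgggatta
Lyz2: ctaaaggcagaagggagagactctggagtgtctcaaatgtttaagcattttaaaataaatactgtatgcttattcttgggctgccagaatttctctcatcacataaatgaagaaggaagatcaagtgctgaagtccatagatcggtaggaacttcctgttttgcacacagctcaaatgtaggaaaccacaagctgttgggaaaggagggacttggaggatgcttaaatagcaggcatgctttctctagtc
C1qb: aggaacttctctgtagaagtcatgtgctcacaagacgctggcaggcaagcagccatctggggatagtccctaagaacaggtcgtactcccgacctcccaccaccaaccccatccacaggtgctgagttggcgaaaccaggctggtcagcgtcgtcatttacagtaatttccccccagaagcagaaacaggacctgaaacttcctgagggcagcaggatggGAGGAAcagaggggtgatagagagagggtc
C1qc: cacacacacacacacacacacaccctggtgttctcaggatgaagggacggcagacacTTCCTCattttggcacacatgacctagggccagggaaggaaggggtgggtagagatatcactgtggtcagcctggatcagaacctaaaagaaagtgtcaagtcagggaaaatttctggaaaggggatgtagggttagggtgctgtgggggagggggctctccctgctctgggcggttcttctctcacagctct

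The letters lie 225 bases before the start in *Cd68*, 30 in *C1qb* and 193 in *C1qc*, and are not in the window of *Lyz2*. Of the 6 members whose promoters were looked up (these 4, *Fcer1g* and *Mrc1*), 4 hold the core on either strand, and 7639 of 32851 RefSeq promoters of this length (23.3%) do. A match of letters is a description and not a binding site.

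The libraries were of unequal depth. Low FPKM values come in steps of whole fragments, and by this estimate BAT held 17.2, 19.9 and 20.3 M fragments on days 0, 4 and 6 and WAT 9.24, 21.8 and 19.8 M, which left WAT day 0 the shallowest. Of 9 adipocyte markers, *Adipoq*, *Plin1*, *Fabp4*, *Cidec*, *Pparg*, *Cd36*, *Lipe* and *Pnpla2* rose with induction and *Lpl* was not called, and of 9 preadipocyte markers *Ly6a*, *Col1a1* and *Thy1* fell and the others were not called (limma, adjusted p under 0.05). A listed 0 is not proof of absence, since a failed estimate is also written as 0, and 1183 of the tested genes are listed at 0 in at least 1 library.

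*Csf1r*, at chr18:61265226-61291803 on the plus strand of mm9, was low throughout. BAT had 1.32, 1.23 and 0.670 FPKM on days 0, 4 and 6 and WAT 1.66, 2.53 and 3.91 FPKM. The lowest WAT library thus stood above the highest BAT library, while the order over the days ran opposite ways in the cell types. Its transcript is long, so that even 0.670 FPKM stood for approximately 39.3 fragments. The gene shares 871 bases with *Hmgxb3* on the opposite strand, which reached 9.75 FPKM, and it is not given in the sources used here whether the counting used strand.

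The adaptors were low in brown preadipocytes and climbed in order of day in each cell type. *Tyrobp* (chr7:31198807-31202596, plus strand) was listed at 0 in BAT on day 0 and stood at 5.89 and 6.79 FPKM on days 4 and 6. WAT held 9.33, 11.3 and 29.0 FPKM of it. For *Fcer1g* (chr1:173159703-173164496, minus strand) the BAT values were 0.373, 2.78 and 6.04 FPKM and the WAT values 7.70, 9.36 and 23.2 FPKM. In neither gene did WAT and BAT overlap, since white preadipocytes already stood above brown cells of day 6. These are short transcripts, and the BAT day 0 value of *Fcer1g* rests on approximately 2.04 fragments, below the 3-fragment level of 0.548 FPKM. The 3-fragment level of *Tyrobp* in that library was 0.478 FPKM.

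The lysosomal genes kept BAT and WAT apart as well. *Lyz2* (chr10:116714390-116719377, minus strand) was the most abundant member in each library, at 16.7, 38.1 and 54.4 FPKM in BAT and 65.0, 108 and 193 FPKM in WAT. In WAT on day 6 it stood above 96.1% of the tested genes and rested on approximately 4250 fragments. *Lyz1*, its near-identical neighbour, stayed between 0 and 0.1005 FPKM, and how reads shared by both were divided is not known. *Cd68* (chr11:69477715-69479655, minus strand) held 1.59, 4.79 and 6.89 FPKM in BAT and 9.22, 14.7 and 32.7 FPKM in WAT. For both genes each WAT library lay above each BAT library, and each later day lay above the earlier one.

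The surface receptors differed from each other. *Mrc1* (chr2:14151041-14253684, plus strand) was barely detected in brown preadipocytes, with 0.112, 0.687 and 1.95 FPKM in BAT and 0.675, 1.84 and 4.89 FPKM in WAT, so it climbed in both cell types and the groups overlapped. *Cd14* (chr18:36884728-36886390, minus strand) followed no such course. It stood at 5.53, 1.35 and 2.87 FPKM in BAT and at 4.15, 1.27 and 8.82 FPKM in WAT, lowest on day 4 in each cell type and lower in WAT than in BAT on days 0 and 4.

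The C1q genes lie side by side on chromosome 4, *C1qb* at 136436044-136442102, *C1qc* at 136445719-136448980 and *C1qa* at 136451832-136454718, and were among the members with the largest rises. *C1qa* was at 0.347, 5.51 and 7.10 FPKM in BAT and at 1.77, 17.5 and 27.2 FPKM in WAT. *C1qb*, the highest of them on days 4 and 6, was listed at 0 in BAT on day 0 and then held 10.6 and 10.5 FPKM, while WAT held 6.00, 36.2 and 47.9 FPKM. *C1qc* was also listed at 0 in brown preadipocytes, with 5.81 and 6.19 FPKM later, against 2.45, 18.6 and 32.3 FPKM in WAT. For each chain, as for *Mrc1*, all 4 libraries of induced cells stood above both preadipocyte libraries, an order that 20.8% of tested genes showed. The 3-fragment levels of *C1qb* and *C1qc* in the BAT day 0 library were 0.196 and 0.199 FPKM, and the *C1qa* value there stood for approximately 5.03 fragments.

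**Figure D1:**
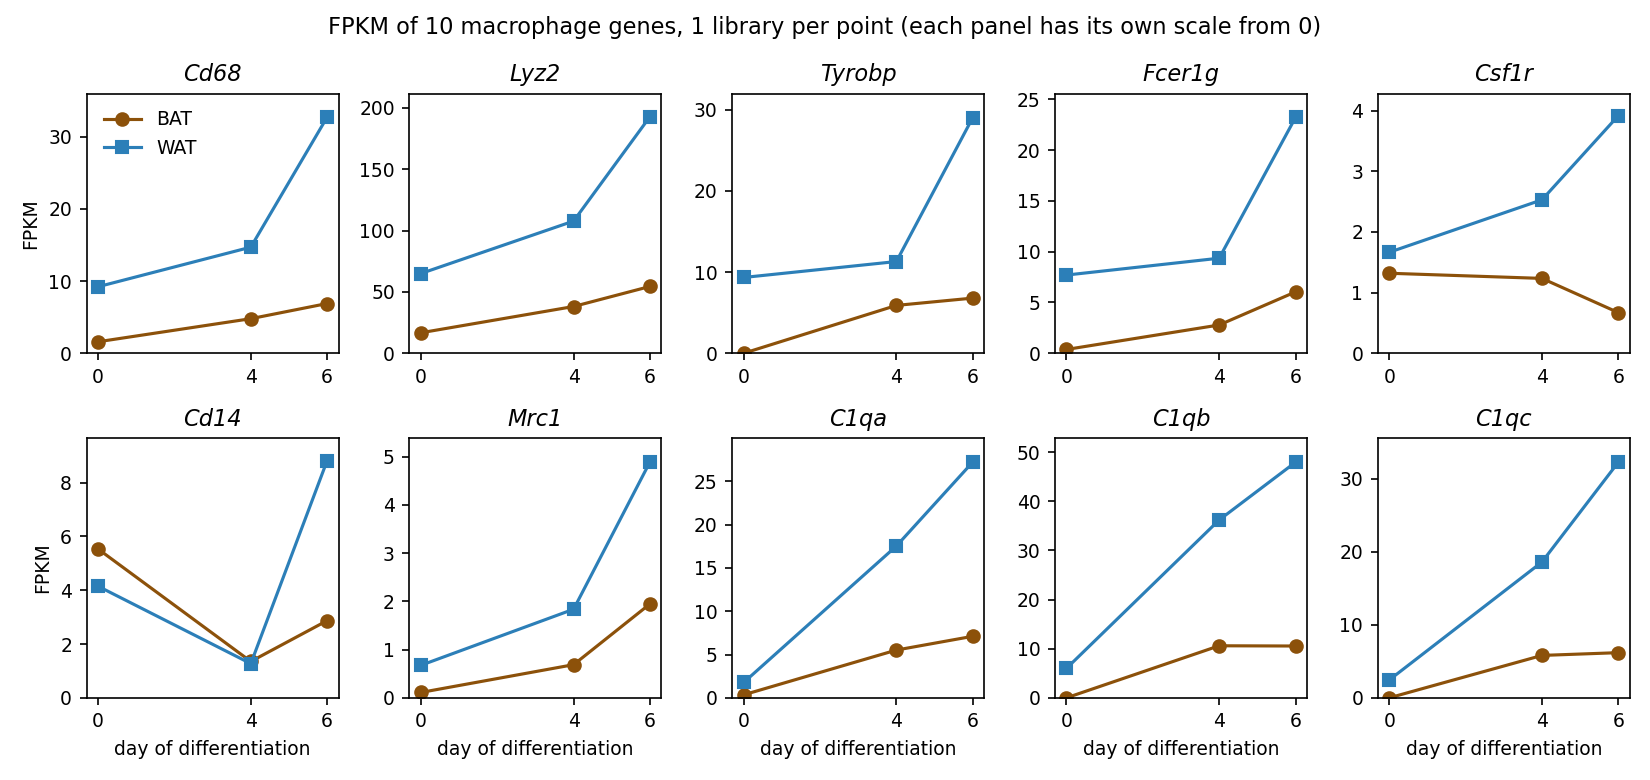
FPKM of each of the 10 genes against day of differentiation, with circles for BAT and squares for WAT, 1 library per point and a separate linear scale from 0 in each panel. In 9 of the panels the WAT line lies above the BAT line on each day, and in the panel of *Cd14* the lines cross, with WAT at 1.27 and BAT at 1.35 FPKM on day 4.

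Whether white cultures held more macrophage RNA than brown ones was asked on each day. On log2(FPKM + 1), a scale that understates differences of low genes, 9 of the 10 genes were higher in WAT than in BAT on day 0, 4 and 6, *Cd14* being the exception, and 14.4% of all tested genes were. On day 6 the FPKM ratio of WAT to BAT ran from 2.51 for *Mrc1* to 5.84 for *Csf1r*, with a median of 4.06. Ratios on day 4 were smaller, from 0.940 for *Cd14* to 3.42 for *C1qb* with a median of 2.95. On day 0, 3 genes were listed at 0 in BAT and *Fcer1g* rested on too few fragments for a ratio. The other 6 genes had ratios from 0.750 (*Cd14*) to 6.04 (*Mrc1*). The BAT value stood for approximately 5.41 fragments in *Mrc1* and 5.03 in *C1qa* (ratio 5.11), so these 2 ratios are uncertain.

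By a 2-fold rule on log2(FPKM + 1), 7 genes were higher in WAT on day 0, beside 13.0% of all tested genes, 6 on day 4, beside 3.08%, and 9 on day 6, beside 4.09%. None was 2-fold lower on day 0, 4 or 6, beside 20.7%, 3.51% and 1.8%. *Mrc1* fell just short of the rule on day 6. The median difference of the 10 genes was 1.84, 1.45 and 1.80 on days 0, 4 and 6 (SD of the 3 daily medians 0.22), beside -0.21, -0.13 and 0.09 over all tested genes. The day 0 median was 1.41 with TPM scaling, 2.26 with a pseudocount of 0.1 and 0.84 with a pseudocount of 5. In 5 genes, *Cd68*, *Lyz2*, *Tyrobp*, *Fcer1g* and *Csf1r*, the lowest WAT library lay above the highest BAT library, an order held by 3.77% of tested genes, and no member had the reverse order, held by 4.97%. The difference was wider on day 6 than on day 0 for 6 members, beside 61.2% of tested genes.

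**Figure D2:**
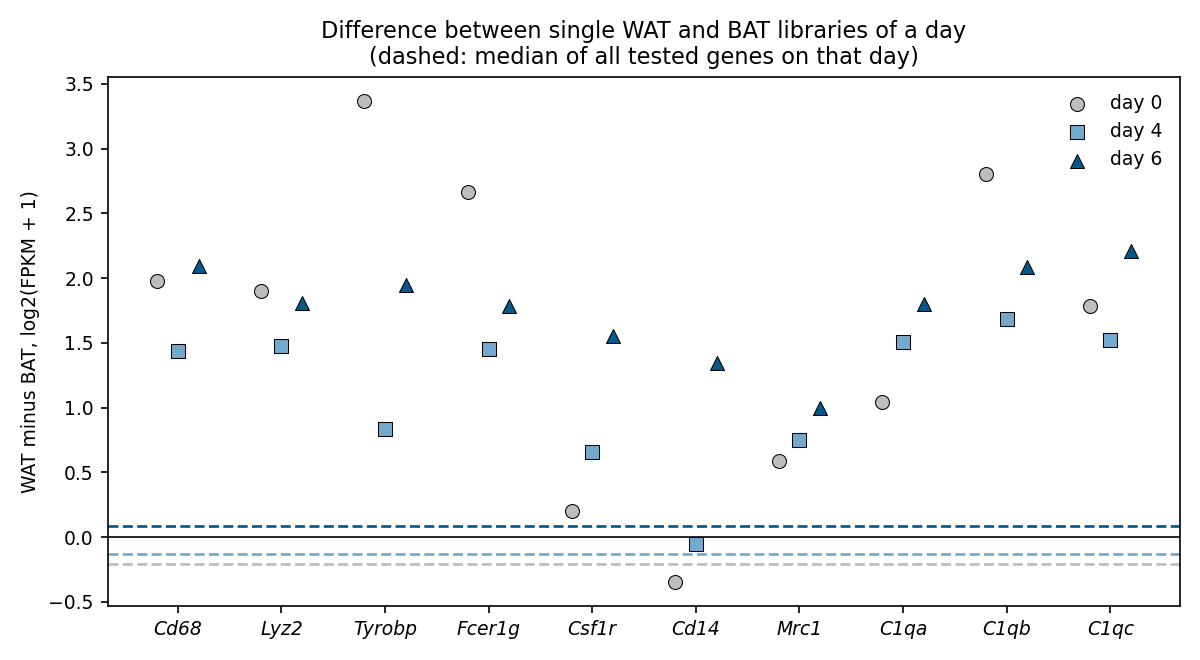
WAT minus BAT difference on log2(FPKM + 1) for each gene, with a separate marker for day 0, 4 and 6, each from 1 library per cell type and so without error bars. The points lie above 0 except those of *Cd14* on day 0 (-0.34) and day 4 (-0.05).

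The limma test of WAT against BAT over the days called none of the 10 genes. With the Benjamini-Hochberg adjustment over 14413 genes, the adjusted p ran from 0.287 for *Lyz2* to 0.763 for *Cd14*. It called no gene of the transcriptome either (0.0% higher, 0.0% lower), the smallest adjusted p being 0.0817. At an unadjusted p under 0.05, 8 of the 10 were higher in WAT, beside 516 of all genes (3.58%), and *Csf1r* and *Cd14* were not among them. The largest difference belonged to *C1qb*, 2.19 with a standard error (SE) of 0.31 and an adjusted p of 0.312, followed by *Tyrobp* (2.05, SE 0.49) and *Fcer1g* (1.97, SE 0.34). *Cd68* and *C1qc* each differed by 1.84, *Lyz2* by 1.73 (SE 0.23) and *C1qa* by 1.45. *Csf1r* was 0.81 (SE 0.37), *Mrc1* 0.78 (SE 0.30) and *Cd14* 0.32 (SE 0.41) higher in WAT. The value of *Cd14* turned to -0.20 without day 6, and the days served as replicates of cell type, which they are not as cultures.

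From preadipocytes to differentiating cells, 8 of the 10 genes rose. Over both cell types limma called *C1qa*, *C1qb*, *C1qc*, *Lyz2*, *Cd68*, *Fcer1g*, *Tyrobp* and *Mrc1* higher on days 4 and 6 than on day 0, beside 11.3% of all tested genes called higher and 10.6% called lower. The C1q chains rose most in this fit of both cell types together, *C1qb* by 3.07 (SE 0.33, limma adjusted p = 0.00280), *C1qc* by 2.85 (SE 0.31) and *C1qa* by 2.74 (SE 0.31, limma adjusted p = 0.00331). *Tyrobp* rose by 1.88 (SE 0.52), *Fcer1g* by 1.39 (SE 0.36), *Cd68* by 1.28 (SE 0.29), *Lyz2* by 1.27 (SE 0.25) and *Mrc1* by 1.15 (SE 0.32), with limma adjusted p from 0.0165 to 0.0485. *Csf1r* was at 0.19 (SE 0.39, limma adjusted p = 0.756) and *Cd14* at -0.62 (SE 0.43, limma adjusted p = 0.345). BAT and WAT served as replicates of a day in this fit, which they are not as cultures. The number called over all tested genes depended on single libraries. The number of members called did so too. It was 4 without BAT day 0, 6 without WAT day 0, 3 without BAT day 6, 3 without WAT day 6, and 1, *C1qb*, without BAT day 4 or without WAT day 4. It was 0 without day 4, 3 without day 6 and 1 without the term for cell type. Without day 4 the comparison is day 6 alone against day 0, and without day 6 it is day 4 alone. With a pseudocount of 5, with no filter or as TPM the number of members called was 4. Among all tested genes, 1629 were called higher in the fit above. That number was 163 without day 4, 992 without day 6 and 1434 with a pseudocount of 5.

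**Figure D3:**
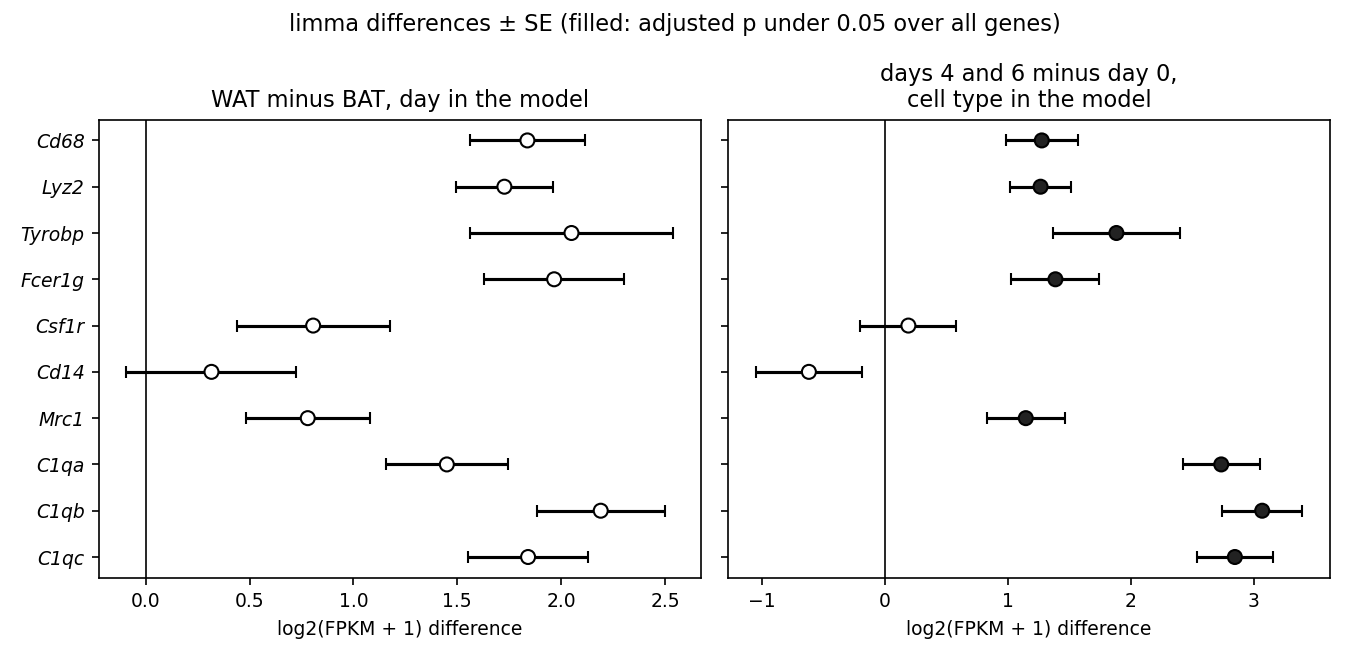
Differences on log2(FPKM + 1) from the limma fit for each gene, with bars of 1 SE, for WAT against BAT and for days 4 and 6 against day 0. Points are filled where the adjusted p over all genes was under 0.05. Filled points stand only in the panel of days 4 and 6 against day 0, where 8 genes are filled and *Csf1r* and *Cd14* are not.

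Within each cell type the course differed in timing, with 1 library per point and no test. In BAT 7 genes passed the 2-fold rule upward between days 0 and 4 (beside 17.1% of all tested genes) and *Cd14* downward (23.2%). Between days 0 and 6, 8 passed it upward (16.1%) and none downward (25.3%), and between days 4 and 6 none passed it upward (3.0%). The rule is on log2(FPKM + 1), which understates changes of low genes. In FPKM, the BAT ratio of day 6 to day 4 ran from 0.543 for *Csf1r* to 2.83 for *Mrc1*, with a median of 1.36. It was 2.17 for *Fcer1g* and 2.12 for *Cd14*. On log2(FPKM + 1) the median of the 10 in BAT was 1.31 above day 0 on day 4 and 2.003 on day 6. In WAT the C1q chains moved earlier than the other members. The FPKM ratio of day 4 to day 0 was 9.89 for *C1qa*, 6.04 for *C1qb* and 7.60 for *C1qc*, against 1.21 to 2.72 for 6 other members and 0.306 for *Cd14*. From day 4 to day 6 in WAT, 5 genes passed the 2-fold rule upward (4.42%), and from day 0 to day 6, 8 did (18.5%). The WAT median was 0.67 above day 0 on day 4 and 1.64 on day 6. All 10 genes were highest in WAT on day 6, as were 11.1% of tested genes, and 8 were lowest in BAT on day 0, as were 20.2%. Both later days stood above day 0 in each cell type for 8 genes, beside 24.5%. The order of days was followed by 7 genes in BAT (16.2%), by 9 in WAT (27.5%) and by 7 in both (6.92%).

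Between days 4 and 6 limma called none of the 10 genes and no gene in all (0.0% each way, adjusted p = 1 for each member). At an unadjusted p under 0.05, 3 members were higher on day 6, *Cd14* by 1.42, *Fcer1g* by 1.06 and *Mrc1* by 0.93, beside 363 genes higher (2.52%) and 198 lower (1.37%). For *Csf1r* the difference was 0.03, and the sign turned under 6 of the alternatives tried.

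The 10 genes together took a small share of the RNA. Their summed level was 26.0, 76.7 and 103 FPKM in BAT and 108, 221 and 403 FPKM in WAT, or 0.00494%, 0.0104% and 0.0123% and 0.0128%, 0.0276% and 0.0501% of each library's FPKM. White preadipocytes held about as much as brown cells of day 6. *Lyz2* alone made up 47.9% to 64.3% of the sum. The C1q chains made up 1.34% of the sum in brown and 9.46% in white preadipocytes, and between 23.0% and 32.7% on days 4 and 6.

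Ratios between the genes shifted after day 0 for some pairs and less for others. *C1qa* stood at 0.218 of the *Cd68* level in brown and 0.192 in white preadipocytes, and at 1.15 and 1.19 on day 4. *Lyz2* over *Cd68* lay between 5.89 and 10.5 in all 6 libraries. *C1qc* over *C1qa* stayed between 0.872 and 1.38 where both were listed above 0, and *C1qb* over *C1qa* between 1.49 and 3.38. *Csf1r* over *Cd68* was 0.828 in BAT on day 0, against 0.0973 to 0.258 in the other libraries, and *Cd14* over *Cd68* was 3.47 there, against 0.0865 to 0.450.

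A shared profile described most of the members. The mean of the 10 centred log2(FPKM + 1) profiles was -1.81, -0.39 and -0.04 in BAT and -0.21, 0.74 and 1.72 in WAT, and it held 72.4% of their variation over the 6 libraries. Pearson's r of each gene with the mean of the other 9, over 6 libraries that share days and cell types, was 0.92 to 0.98 for 8 genes. It was 0.69 for *Csf1r* and 0.05 for *Cd14*. Among 7809 protein-coding genes that reached 10 FPKM, 56 (0.717%) had an r of at least 0.9 with the mean profile and 10 an r of at least 0.95. The closest were *Cd52* (0.990), a surface glycoprotein of leukocytes, *Ctss* (0.987), the lysosomal protease cathepsin S, and *Clec3b* (0.978), which encodes tetranectin. Then came *2210016F16Rik* (0.971), *Fgfr1op2* (0.964), *Fbxo6* (0.960), *Atp6v1g1* (0.955), which encodes a subunit of the vacuolar proton pump, and *Rbpms* (0.954), none of which was on a marker list used here. *Pf4*, which encodes a chemokine of platelets and some macrophages, stood at 0.9504, with 0, 2.25 and 3.33 FPKM in BAT and 8.03, 8.17 and 23.0 FPKM in WAT. With 6 points, such values are a description of these libraries.

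Other genes of the macrophage were read from a list of 20, of which 13 passed the filter of 1 FPKM. Over the days 3 rose and 1 fell, beside 11.3% of all tested genes called higher and 10.6% called lower. The same shares stand beside the calls of the lists that follow. At least 2-fold higher in WAT than in BAT were 3 of the 13 on day 0, with 1 at least 2-fold lower, 3 on day 4 and 10 on day 6. Of all tested genes, 13.0%, 3.08% and 4.09% were at least 2-fold higher on these days, and 20.7%, 3.51% and 1.8% at least 2-fold lower. These shares stand beside this list and those below. The share merely higher in WAT on a single day was not computed, so such counts have none beside them. The median difference of all tested genes was -0.21, -0.13 and 0.09 on days 0, 4 and 6. *Emr1*, which encodes F4/80, rose by 1.79 (SE 0.44, limma adjusted p = 0.0348), with 0.216, 2.26 and 2.07 FPKM in BAT and 0.213, 2.35 and 8.36 FPKM in WAT. *Ctss* rose by 1.67 (SE 0.30) and *Folr2*, a folate receptor of tissue macrophages, by 1.43 (SE 0.35). *Gpnmb*, a glycoprotein also made by other cells, fell by 3.88 (SE 0.65, limma adjusted p = 0.010), with 385, 9.82 and 7.67 FPKM in BAT and 146, 19.7 and 34.3 FPKM in WAT. The list's sum followed *Gpnmb*, at 24.6 to 389 FPKM in BAT and 55.0 to 162 FPKM in WAT. *Cd163*, *Cx3cr1*, *Ccr2*, *Vsig4* and *Timd4*, which mark subsets of resident macrophages and monocytes, did not exceed 0.129 FPKM.

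Leukocyte genes at large were read from a further list. Of 12 listed, 11 passed the filter. In WAT 8, 11 and 11 of them were higher than in BAT on days 0, 4 and 6. At least 2-fold higher were 6, 2 and 8, beside 13.0%, 3.08% and 4.09% of all tested genes. *Cd52* rose over the days by 1.44 (SE 0.34, limma adjusted p = 0.0295). It was the list's only call among 11 tested, beside 11.3% of all tested genes called higher. The summed level lay between 4.51 and 16.6 FPKM in the BAT libraries and between 17.0 and 63.7 FPKM in the WAT libraries. *Ptprc*, which encodes the pan-leukocyte antigen CD45, was between 0.0246 and 1.37 FPKM and highest in WAT on day 6.

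Among transcription factors of macrophages, 6 of 7 listed were analysed and 2 were called over the days, 1 in each direction. Of all tested genes, 11.3% were called higher and 10.6% lower. *Nr1h3*, the oxysterol receptor LXRα that adipocytes also use, rose by 2.63 (limma adjusted p = 0.00258). *Runx1*, a factor of blood cell development, fell by 2.89. *Sfpi1*, which encodes PU.1, was at 0.901, 0.0546 and 1.48 FPKM in BAT and 0.529, 0.797 and 3.82 FPKM in WAT (0.36, limma adjusted p = 0.541). On log2(FPKM + 1), none of the 6 was 2-fold higher in WAT on day 0, 4 or 6. In plain FPKM *Sfpi1*, low in each library, was more than 2-fold higher in WAT on days 4 and 6 and lower on day 0. At least 2-fold lower in WAT on day 0 were 2 of the 6, beside 20.7% of all tested genes.

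The ligands of CSF1R went in opposite directions. *Csf1* fell by 3.06 (SE 0.32, limma adjusted p = 0.00260), with 413, 23.0 and 49.4 FPKM in BAT and 285, 32.8 and 69.6 FPKM in WAT. *Il34* rose by 1.29 (SE 0.30, limma adjusted p = 0.0289), with 2.15, 3.49 and 9.85 FPKM in BAT and 1.75, 3.55 and 11.1 FPKM in WAT. Of 7 listed genes of this family 3 passed the filter, and the third, *Csf2ra*, was at -0.95 (limma adjusted p = 0.0867).

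Receptors and kinases that work with TYROBP and the Fc receptor γ chain (encoded by *Fcer1g*) were mostly low. Of 17 listed, 8 passed the filter. Over the days 1 of the 8 rose, near the 11.3% of all tested genes called higher, and none fell. At least 2-fold higher in WAT on days 0, 4 and 6 were 3, 2 and 5, beside 13.0%, 3.08% and 4.09% of all tested genes. *Trem2*, a lipid receptor that signals through TYROBP, rose by 1.26 (SE 0.32, limma adjusted p = 0.0364), with 0.0656, 1.09 and 3.02 FPKM in BAT and 2.32, 3.99 and 8.83 FPKM in WAT. *Fcgr3*, an IgG receptor that needs the γ chain, was at 0.354, 1.79 and 2.72 FPKM in BAT and 3.41, 6.71 and 8.48 FPKM in WAT (1.10, limma adjusted p = 0.0507). The kinase gene *Syk* stayed under 1 FPKM in each library.

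Partners of CD14 in the response to lipopolysaccharide gave 0 calls over the days among 8 tested of 9 listed. *Tlr4* was at 10.6, 3.04 and 3.46 FPKM in BAT and 3.33, 2.52 and 5.99 FPKM in WAT (limma adjusted p = 0.373), so that it too was lowest on day 4 in each cell type. *Lbp*, which encodes the protein that hands lipopolysaccharide to CD14, was at 85.6, 17.4 and 27.5 FPKM in BAT and 35.2, 20.5 and 32.9 FPKM in WAT. The list's median was 0.91 lower in WAT than in BAT on day 0 (-0.91) and 0.10 higher on day 6.

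Complement genes that act with C1q did not follow the C1q chains as a group. Of 11 listed and tested, 4 fell and 1 rose, beside 10.6% of all tested genes called lower and 11.3% called higher. *C2* fell by 1.91 (limma adjusted p = 0.00481), *C4b* by 1.46, *C1ra*, one of the proteases bound to C1q, by 1.63 and *Serping1*, which encodes their inhibitor, by 1.60. *C3* rose by 2.09 (SE 0.52, limma adjusted p = 0.0347), with 83.2, 124 and 217 FPKM in BAT and 34.2, 269 and 386 FPKM in WAT. *C1s* was at -1.39 (limma adjusted p = 0.123). *C1ra* and *C1rb*, *C1s* and *Gm5077*, and *C4a* and *C4b* are near copies, so that reads may have been divided between them. On day 0, 4 of the 11 were higher in WAT than in BAT. On that day 6 were at least 2-fold lower, beside 20.7% of all tested genes. On day 6 all 11 were higher, 4 of them at least 2-fold, beside 4.09% of all tested genes.

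Relatives of the members outside macrophages took another course. Of 14 listed, 10 were tested, 5 fell and none rose, beside 10.6% of all tested genes called lower and 11.3% called higher. *Pdgfrb*, which encodes a receptor of the same kinase class as CSF1R and marks mesenchymal cells, fell by 3.76, *Mrc2* by 2.84 and *Lamp1*, a relative of *Cd68* in lysosomes, by 1.36, and *C1qtnf1* and *C1qtnf2*, which encode secreted proteins with a C1q domain, by 1.85 and 2.91. Inflammatory genes gave 2 calls among 6 tested of 12, and *Ccl2*, a chemokine that draws monocytes, fell by 3.77 and *Il6* fell by 2.296. The others tested were not called, with *Tnf* at 0.74, *Ccl4* at 0.37, *Cxcl2* at 0.36 and *Ccl3* at 0.16. Of the 6, 4 were higher in WAT than in BAT on day 0, 5 on day 4 and 6 on day 6. At least 2-fold higher were 2, 0 and 5 of them, beside 13.0%, 3.08% and 4.09% of all tested genes. Of 9 genes of alternatively activated macrophages 4 were tested and none was called. Over the days *Clec10a* was at 0.96, *Arg1* at 0.70, *Retnla* at 0.45 and *Stab1* at -0.66. *Stab1* stood at 0.340, 1.54 and 2.25 FPKM in BAT and at 34.2, 4.05 and 7.67 FPKM in WAT. On days 0, 4 and 6, 1, 4 and 4 of the 4 were higher in WAT than in BAT. At least 2-fold higher were 1, 3 and 2, beside the same shares of all tested genes.

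Markers of other cells that the fraction could hold were read beside these values. Summed over its list, the T cell genes lay at 0.267 to 1.36 FPKM in BAT and 0.283 to 1.25 FPKM in WAT, with *Cd3d* and *Cd3g* listed at 0 in all 6 libraries. B cell genes summed to at most 0.399 FPKM, neutrophil genes to 2.16 FPKM, mast cell genes to 1.37 FPKM and epithelial genes to 1.15 FPKM. Of 9 dendritic cell genes 3 were tested, with sums of 2.74 to 7.70 FPKM in BAT and 3.90 to 15.7 FPKM in WAT, and *H2-Ab1* rose by 2.61 while *H2-Aa*, its partner chain, did not exceed 0.196 FPKM. Endothelial sums were 5.05 to 16.1 FPKM in BAT and 5.54 to 28.3 FPKM in WAT, highest on day 0, and *Cdh5* fell by 1.19. Preadipocyte markers moved with the macrophage genes on days 4 and 6, when 9 of 9 were higher in WAT. Of these, 3 and then 6 were at least 2-fold higher, beside 3.08% and 4.09% of all tested genes. On day 0 they ran the other way, with 3 of 9 higher and a median of -0.72, beside -0.21 over all tested genes. None was at least 2-fold higher and 4 were at least 2-fold lower, beside 13.0% and 20.7% of all tested genes. The summed level of the preadipocyte markers took values of 862 to 8932 FPKM in BAT and 1662 to 3433 FPKM in WAT. Their part in the difference of the macrophage genes was not tested.

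**Figure D4:**
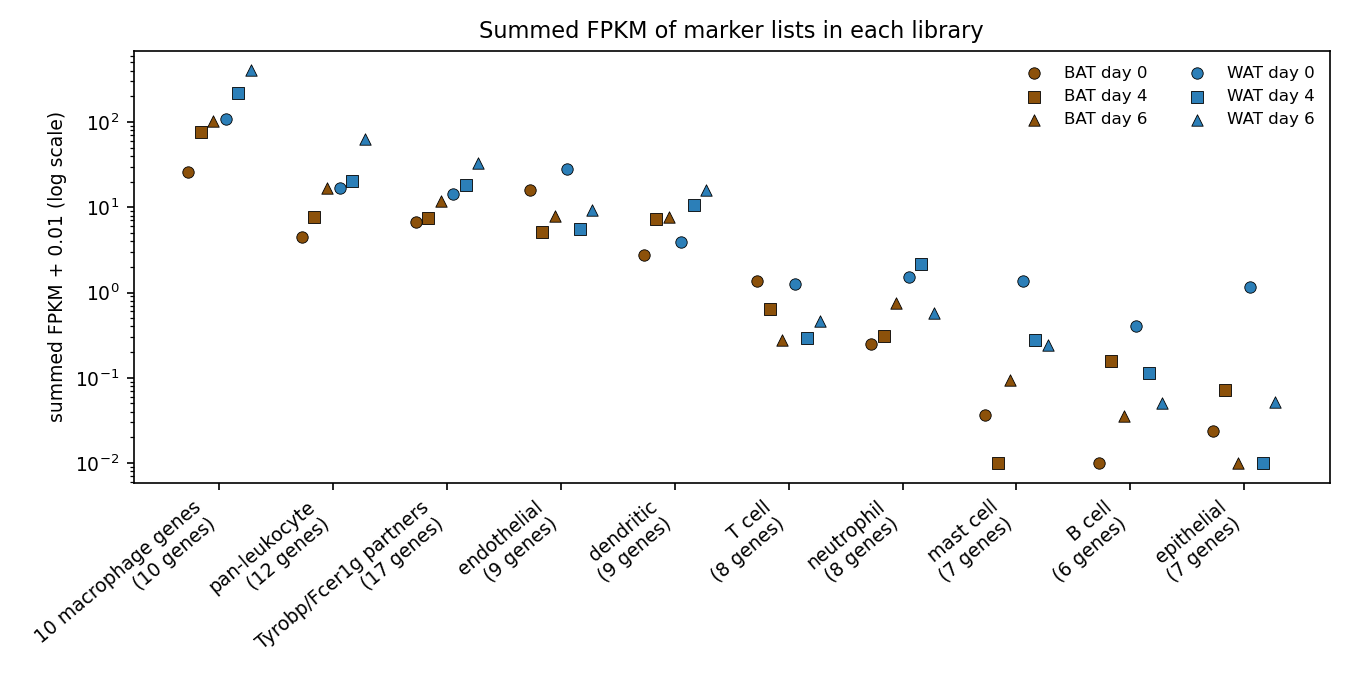
Summed FPKM of 10 marker lists in each of the 6 libraries on a log axis, after adding 0.01 so that a sum of 0 can be drawn, with color for the cell type and the marker shape for the day. The 10 macrophage genes lie between 26.0 and 403 FPKM, and the T cell, neutrophil, mast cell, B cell and epithelial lists lie at or below 2.16 FPKM.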

How the data were processed

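Total RNA of cultured BAT and WAT cells was sequenced on days 0, 4 and 6, with 1 library per condition. The deposited values are FPKM, which the authors computed with Cufflinks 2.1.1 from paired-end reads of directional libraries aligned to mm9 with TopHat2 2.0.11. Columns labelled SUB were taken as WAT, the inguinal depot being subcutaneous. Members were matched by symbol, as were the partner and marker lists (2 listed genes through older symbols in the RefSeq gene table). The members and lists were chosen with earlier results of these data known.

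Of 37841 entries, the one with the highest mean was kept for each of 34465 symbols, and the 14413 genes reaching 1 FPKM in any library entered limma 3.58.1 (R 4.3.3) as log2(FPKM + 1). The model had terms for cell type and day and a variance trend (degrees of freedom: 2 residual, 4.26 prior), and p was adjusted over all genes by Benjamini-Hochberg with a threshold of 0.05. The size of the differences it returned was checked on simulated data with additive effects and independent noise. That check does not cover the rate of false calls in these unreplicated data. Fragment numbers are estimates: in single-transcript genes, 79.6% to 85.0% of low values fell within 0.1 of a whole fragment, and no counts were tested. With 1 library per condition, the spread behind each p-value is the residual of the model with cell type and day. It mixes noise, which may be technical, with any difference between the cell types in their course over the days. In comparisons of days BAT and WAT served as replicates, and in that of cell types the days did. Nothing states separate cultures. The rule named each member, list genes that were called or had the highest means, and the closest of the 15 genes most like the mean profile; other list genes, such as *Ptprc*, *Sfpi1*, *Tlr4*, *Syk* and *H2-Aa*, were named after their values were seen. Gene positions are the table's, on mm9, and equal GENCODE M1 for the 10 members. Other steps used Python 3.11.15. Alternatives were pseudocounts of 0.1 and 5, other filters, scalings and fold rules, removal of the length trend, other model terms, and each day or library left out. Methylation data and norepinephrine-treated cells were not analysed here. Of the transcription factor list, 1 gene is not reported here.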

Additional observations from a re-analysis of the deposited data

Results flagged for a closer look

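Day 6 against day 0 gave opposite signs in the cell types for 2 genes on log2(FPKM + 1). *Csf1r* was -0.47 in BAT and 0.88 in WAT, and *Cd14* was -0.75 in BAT and 0.93 in WAT. Each value compares 1 library with 1 library, and the difference between the cell types was not tested.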

How the results depend on the processing

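No member was called between WAT and BAT, or between days 6 and 4, under any alternative tried, the adjusted p of WAT against BAT being 0.0991 at the lowest (limma). Among all tested genes, those called higher on days 4 and 6 than on day 0 went from 1629 to 163 without day 4. They went to 992 without day 6. Without day 4 the comparison is day 6 alone against day 0, and without day 6 it is day 4 alone. The 8 calls of members on days 4 and 6 against day 0 became 4 with a pseudocount of 5, with no filter or with TPM scaling. They became 1 without a term for the other factor, 3 without day 6 and 0 without day 4 (smallest limma adjusted p of a member 0.0591). With each library left out in turn the count ranged from 1 to 6. With day as a replicate block (estimated correlation 0.480), 0 members were called between WAT and BAT and 2 genes in all against 0. The day 0 median of 1.84 became 2.26 and 0.84 with pseudocounts of 0.1 and 5 and 1.41 as TPM, that of day 4 (1.45) became 0.95 and that of day 6 (1.80) became 1.47 with a pseudocount of 5. TPM scaling moved the median of all genes between WAT and BAT from -0.10 to -0.31. By a 1.5-fold rule 8, 9 and 10 members were higher in WAT on days 0, 4 and 6, and by a 4-fold rule 3, 0 and 3. The share of all tested genes was computed for the 2-fold rule only, so these counts have none to stand beside. Signs turned as follows. WAT against BAT of *Cd14* was -0.20 without day 6, and -0.20 to 0.65 with 1 library left out. Leaving out either library of a day gives the same WAT against BAT value as leaving out the day, so these are not separate checks. Without day 4, *Cd14* was at 0.089 on day 6 alone against day 0. Days 4 and 6 against day 0 of *Csf1r* was -0.26 without WAT day 0 and -0.091 without WAT day 6. The range for *Csf1r* with 1 library left out was -0.26 to 0.64. Day 6 against day 4 of *Csf1r* was -0.090 with a pseudocount of 0.1, -0.058 after median-ratio scaling, -0.034 as TPM, -0.031 with the length trend removed, and -0.53 to 0.59 with 1 library left out, negative without WAT day 4 or WAT day 6. Without WAT day 4 *Tyrobp* was -0.18 and *C1qb* -0.19, in ranges of -0.18 to 1.64 and -0.19 to 0.58. The causes were not tested. Leaving out day 0 gives no value against day 0. The shallowest library, WAT day 0, limits low transcripts most.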
